A study of Mus musculus with 9 samples.

Results

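The class II and IV histone deacetylase genes were the 7 genes Hdac4, Hdac5, Hdac7 and Hdac9 (class IIa), Hdac6 and Hdac10 (class IIb) and Hdac11 (class IV), taken by gene name from a table of 20087 named genes and followed through all 9 libraries. All 7 were in the table. The libraries came from mouse embryos of the B6D2F1 background at E2.75, around the morula stage, and each held polyadenylated RNA from 60 pooled embryos. At the zygote stage every embryo received an injected siRNA (a small interfering RNA, which lowers the messenger RNA it matches). The 3 groups of 3 libraries were NC (nonspecific control siRNA, genotype given as wild type), Hdac1/2 cKD (siRNA against both Hdac1 and Hdac2, a co-knockdown) and Sin3a KD (siRNA against Sin3a). Both knockdowns lower RNA without changing the genome, no library was uninjected, and none of the 7 genes was a target.

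Histone deacetylases remove acetyl groups from lysines. The class I enzymes Hdac1 and Hdac2 are nuclear and carry the activity of corepressor complexes such as the one built on Sin3a. Class IIa enzymes have weak activity of their own: they bind MEF2 transcription factors and recruit the NCoR/SMRT complex with Hdac3, and kinases send them out of the nucleus by creating sites for 14-3-3 proteins. Of class IIb, Hdac6 works mostly in the cytoplasm on tubulin and binds ubiquitin, and Hdac10 acts on acetylated polyamines. Hdac11, the sole class IV enzyme, removes long fatty acyl groups from lysine.

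Values are the authors' normalised counts, and each group is given as mean ± SD over its 3 libraries. The log2 fold change (log2) was fitted with limma on log2(value + 1), with its standard error (SE), and adjusted p-values (Benjamini-Hochberg) cover the 13343 genes that reached a value of 10 in 3 or more libraries. A gene was called at an adjusted p below 0.05. Nothing in the labels ties replicates to separate collections or parents, so the tests measure the spread between these pools, which may be technical. In pooled embryos, fewer cells of a type and less RNA per cell cannot be told apart.

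The estimated depth was 8.40 M to 16.9 M reads per library. NC replicate 3 was the shallowest and stood apart on the first principal component, at 96.6 against 16.8 and 20.7 for the other NC libraries. Hdac1 stood at 16.9% and Hdac2 at 13.3% of their NC means in Hdac1/2 cKD, and Sin3a at 29.0% in Sin3a KD. In Hdac1/2 cKD, Sin3a stood at 138% of NC, with no overlap, but did not pass (log2 0.48, limma adjusted p = 0.0693). Hdac1 also stood at 34.3% of NC in Sin3a KD, where lower Sin3a and lower Hdac1 cannot be told apart, and 40.02% of its 31-base stretches recur in other annotated transcripts, mainly of Gm10093, so reads may be split between them. All 10 embryo markers were detected. Their sums lay between 45088 and 48691 in the NC libraries, between 32377 and 35607 in Hdac1/2 cKD and between 43194 and 46453 in Sin3a KD. Pou5f1 was the highest marker, and the sums hide changes of single markers. In Hdac1/2 cKD, Cdx2 stood at 15.0% of its NC mean, Gata3 at 50.8% and Krt18, alone above NC, at 109%. In Sin3a KD, Krt8 stood at 30.4% and Nanog at 47.0%, while Pou5f1 (105%), Gata3 (111%) and Cdh1 (103%) were above NC. The part of these markers in the results was not tested. Of 10 cumulus and granulosa cell markers 7 were in the table, and their sums overlapped between the groups (252 to 424, mostly Amhr2). The sums of 8 oocyte markers ran from 286 to 348 (NC), from 338 to 359.7 (Hdac1/2 cKD) and from 348 to 404 (Sin3a KD). Sperm markers summed to at most 11.2.

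Hdac5 and Hdac6 were the 2 genes called in any comparison, and the 250 bases before their RefSeq start sites (assembly GRCm38.p6) are shown to give the sequence at those starts; the gene-level counts do not measure where transcripts begin. Hdac5 lies at chr11:102230173-102230422 and Hdac6 at chrX:7947890-7948139, both on the reverse strand and read 5′ to 3′. Capitals mark the GC box GGGCGG, the CCAAT box CCAAT and the MEF2 motif, each searched on both strands. The motifs CACGTG and GGAATG were searched as well and had no match.
Hdac5: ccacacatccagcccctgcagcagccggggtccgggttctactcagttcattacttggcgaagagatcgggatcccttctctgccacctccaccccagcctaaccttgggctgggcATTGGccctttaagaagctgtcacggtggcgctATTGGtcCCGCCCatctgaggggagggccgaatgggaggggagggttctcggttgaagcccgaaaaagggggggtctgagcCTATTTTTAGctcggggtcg
Hdac6: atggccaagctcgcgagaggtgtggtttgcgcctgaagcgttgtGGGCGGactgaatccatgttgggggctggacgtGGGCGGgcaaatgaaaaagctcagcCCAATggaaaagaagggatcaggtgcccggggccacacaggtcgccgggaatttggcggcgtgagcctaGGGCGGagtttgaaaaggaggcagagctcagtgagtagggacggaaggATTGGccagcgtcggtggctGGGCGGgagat
The Hdac5 window held 1 GC box, beginning 94 bases before the start, 2 CCAAT boxes and 1 match to the MEF2 motif beginning 20 bases before the start. It held 12 CpG, against a median of 6 over 32851 promoters. The Hdac6 window held 4 GC boxes, 2 CCAAT boxes and 17 CpG, and no MEF2 match. Over all promoters, 32.7% held the GC box, 33.9% the CCAAT box and 2.92% the MEF2 motif, which was added to the search after the Hdac5 window had been read. A match describes letters, not a bound site.

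In NC, Hdac6 and Hdac5 made up most of the RNA of the 7 genes, and Hdac9 was barely detected. Levels were compared between genes per kilobase (kb) of merged exon. Hdac6 came first at 114 ± 13.9 normalised counts per kb (SD, n = 3), followed by Hdac5 at 70.8 ± 4.47, and their NC libraries did not overlap. Hdac4 at 11.8 ± 1.68 and Hdac10 at 10.2 ± 3.36 were not separated by their spread on this scale. The same held for Hdac11 at 3.71 ± 2.77 and Hdac7 at 3.55 ± 2.22, and Hdac9 was last at 0.341 ± 0.220. Among tested genes with a length, these levels per kb in NC stood at percentiles of 65.0 for Hdac6, 56.4 for Hdac5, 26.8 for Hdac4, 24.8 for Hdac10 and 0.494 for Hdac9. The class I genes Hdac1, at 1616 per kb, and Hdac2, at 511, were higher, and Hdac3, at 82.7, lay between Hdac6 and Hdac5. Several of these places depended on the length used. Divided by the mean transcript length, Hdac5 stood at 352, Hdac6 at 307 and Hdac3 at 206, below both. On that scale Hdac4, at 83.7 ± 11.9, was separated from Hdac10, at 16.7 ± 5.48. Divided by the longest transcript, Hdac4 and Hdac10 were at 23.0 ± 3.28 and 11.9 ± 3.92, and Hdac3, at 93.5, was again below Hdac5, at 115, and Hdac6, at 131.

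**Figure D1:**
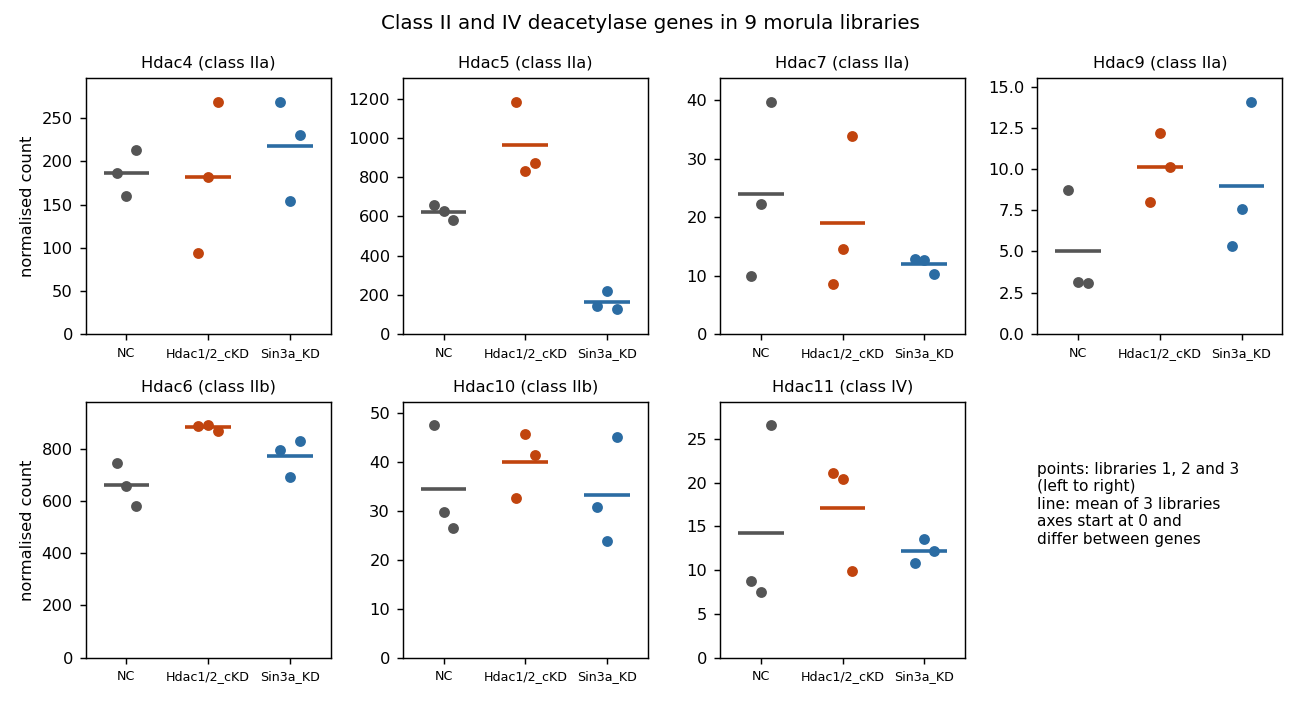
Normalised counts (vertical axis, starting at 0 and different for each gene) of the 7 genes in the NC, Hdac1/2 cKD and Sin3a KD libraries; points are replicates 1, 2 and 3 from left to right, and lines are group means. Hdac5 forms 3 separate groups, with Sin3a KD at 127 to 219, NC at 580.0 to 658 and Hdac1/2 cKD at 834 to 1187, whereas the points of Hdac4, Hdac7, Hdac9, Hdac10 and Hdac11 overlap.

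Hdac5 (ENSMUSG00000008855, chromosome 11, 102194432 to 102230166, reverse strand) encodes the class IIa enzyme best known for leaving the nucleus upon calcium and stress signals. It read 658, 628 and 580.0 in NC, 1187, 834 and 874 in Hdac1/2 cKD and 141, 219 and 127 in Sin3a KD. All 3 Sin3a KD libraries lay below and all 3 Hdac1/2 cKD libraries above every NC library. In Sin3a KD, Hdac5 fell to 163 ± 49.4 (SD, n = 3), 26.1% of the NC mean of 622 ± 39.2 (log2 -1.97, SE 0.21, 95% interval -2.42 to -1.52, limma adjusted p = 0.000865). It ranked 4 among all tested genes by p in that comparison, and 86 genes had a lower log2 fold change. The siRNA target Sin3a itself stood at 29.0% of NC in the same libraries. The call held in 19 of 20 alternative fits. It was lost without NC replicate 3 and with lane as a factor (log2 -1.72, adjusted p = 0.497), a fit in which 10 genes in all were called, and which was chosen after seeing the data. Without NC replicate 3 alone the change was log2 -2.02 (adjusted p = 0.00191), and within sequencing lane 3, as read from the library descriptions, it was -1.79 with 2 Sin3a KD libraries and 1 NC library.

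Hdac5 stood at 965 ± 193 (SD, n = 3) in Hdac1/2 cKD, 1.55 times the NC mean, without passing the threshold (log2 0.62, SE 0.21, 95% interval 0.17 to 1.07, limma adjusted p = 0.0628). Its adjusted p passed in 3 of 20 alternative fits: 0.0288 with libraries scaled to equal totals, 0.0295 without Sin3a KD replicate 2 and 0.0308 with only these 2 groups. Without NC replicate 3 it was 0.131. Replicate 1 of Hdac1/2 cKD was the highest library, and without it the change was log2 0.46. The knockdowns were also compared directly: Hdac5 was 5.93 times as high in Hdac1/2 cKD as in Sin3a KD (log2 2.58, SE 0.21, limma adjusted p = 6.50e-06). That difference passed in all 20 alternative fits, with log2 values of 2.38 to 2.82. Of its 31-base stretches, 1.11% recur elsewhere, mainly in the microRNA gene Mir8101 that lies within it.

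Hdac4 (chromosome 1, 91928779 to 92195699, reverse strand), a class IIa repressor known from cartilage and muscle, read 187, 159.6 and 213 in NC, 94.3, 182 and 269 in Hdac1/2 cKD and 268, 154 and 231 in Sin3a KD. The spread within Hdac1/2 cKD covered the whole range of NC. Its change was log2 -0.15 in Hdac1/2 cKD (95% interval -0.88 to 0.58, limma adjusted p = 0.810) and 0.19 in Sin3a KD (-0.54 to 0.93, adjusted p = 0.775). A predicted long noncoding RNA on the opposite strand, Gm26720, holds most of the 21.9% of Hdac4 stretches that recur elsewhere, and whether counting used strand is not given in the sources used here.

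Hdac7 (chromosome 15, 97792664 to 97844502, reverse strand), known from vessel walls and thymocytes, was near the detection floor. It read 9.96, 22.3 and 39.8 in NC, 8.58, 14.6 and 34.0 in Hdac1/2 cKD and 12.8, 12.6 and 10.3 in Sin3a KD, or about 9 to 34 reads. The groups overlapped, and NC held the widest spread. The change was log2 -0.33 in Hdac1/2 cKD (95% interval -1.78 to 1.120, limma adjusted p = 0.787) and -0.76 in Sin3a KD (-2.21 to 0.69, adjusted p = 0.530). These wide intervals leave room for a fall of several-fold and for a smaller rise. Hdac9 (chromosome 12, 34047580 to 34917095, reverse strand), a class IIa gene of muscle and brain, passed the filter with exactly 3 libraries at 10 or more. It read 8.72, 3.17 and 3.11 in NC, 8.003, 12.2 and 10.1 in Hdac1/2 cKD and 5.31, 7.56 and 14.1 in Sin3a KD, about 2 to 14 reads. All groups overlapped (log2 0.99 and 0.76 against NC, SE 0.80, limma adjusted p = 0.446 and 0.608).

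Because Hdac5 dominated class IIa, its changes set the class total. The summed class IIa level was 86.5 ± 1.98 normalised counts per kb in NC, 125 ± 16.8 in Hdac1/2 cKD and 34.7 ± 2.80 in Sin3a KD (SD, n = 3). Hdac5 held 84.4%, 84.0% and 77.2% of that sum in the NC libraries and 94.6%, 86.8% and 81.4% in Hdac1/2 cKD. In Sin3a KD it held 45.6%, 67.3% and 45.9%, and Hdac4 held 48.0%, 26.3% and 46.2%. In 2 of the 3 Sin3a KD libraries Hdac4 had the larger share by merged exon length, although its own level did not pass the test in that comparison. Class IIb sums were 124 ± 17.1, 163 ± 2.62 and 142 ± 15.4 per kb in NC, Hdac1/2 cKD and Sin3a KD. The 7 genes held 8.83% ± 0.706 of the RNA per kb of all 11 class I, II and IV genes in NC, 39.96% ± 1.31 in Hdac1/2 cKD and 14.2% ± 2.48 in Sin3a KD. That share includes the fall of the targeted Hdac1 and Hdac2 in its denominator, since the sum over the 7 genes themselves was 214 ± 17.0, 293 ± 15.8 and 180.2 ± 12.6.

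**Figure D2:**
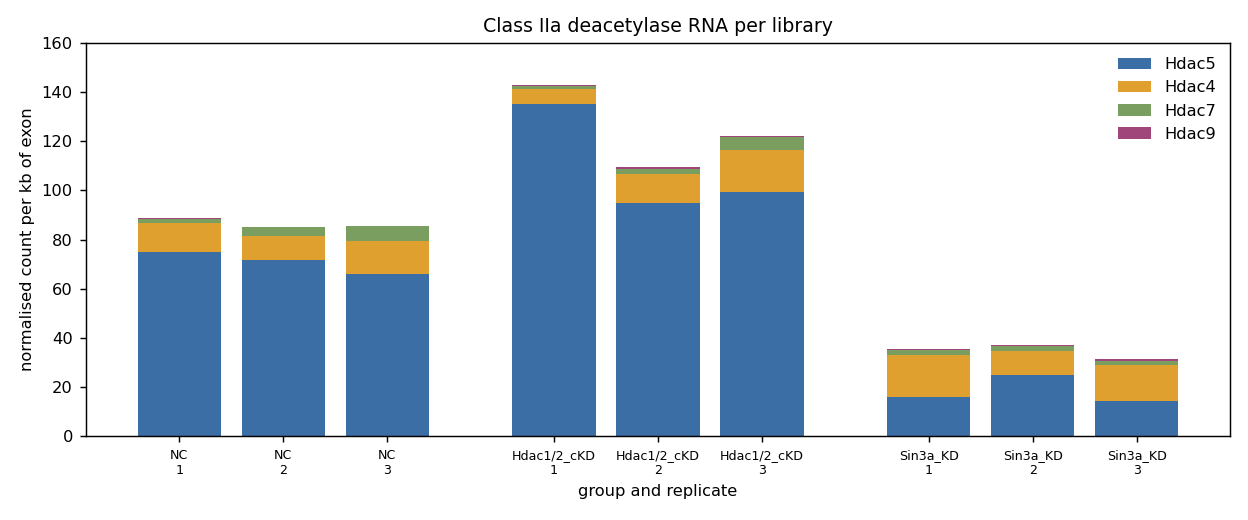
Stacked levels of the 4 class IIa genes in each library, as normalised counts per kb of merged exon (vertical axis from 0), with libraries ordered by group and replicate. Hdac5 fills most of every NC and Hdac1/2 cKD bar, and in Sin3a KD the bars are shorter, at 31.6 to 37.1 in all, and Hdac4 fills a larger part of them.

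Hdac6 (chromosome X, 7930120 to 7947889, reverse strand), the cytoplasmic tubulin deacetylase, read 744, 655 and 582 in NC, 887, 889 and 868 in Hdac1/2 cKD and 793, 689.8 and 829 in Sin3a KD. The Hdac1/2 cKD libraries lay close together and above all others. Against NC, Hdac6 rose to 881 ± 11.8 from 660.3 ± 81.0 (SD, n = 3; 133% of NC; log2 0.42, SE 0.14, 95% interval 0.13 to 0.71, limma adjusted p = 0.0499). This call sat at the threshold and held in 3 of 20 alternative fits. It was lost when any library other than NC replicate 1 was left out, with adjusted p of 0.0528 to 0.135, the highest without NC replicate 3 (log2 0.34). With the replicate number as a block the adjusted p was 0.0564. The direction was the same in all 20 fits (log2 0.34 to 0.54). Within lane 2 the difference was 0.44, with 2 Hdac1/2 cKD libraries and 1 NC library. Within lane 3 it was 0.58, with 1 library of each group, the NC library being replicate 3. In Sin3a KD, Hdac6 at 771 ± 72.4 overlapped NC (log2 0.23, SE 0.14, limma adjusted p = 0.333). The Hdac1/2 cKD and Sin3a KD libraries did not overlap, but their difference did not pass (log2 0.20, adjusted p = 0.363).

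Hdac10 (chromosome 15, 89123307 to 89128700, reverse strand), the polyamine deacetylase, read 47.6, 29.8 and 26.5 in NC, 32.8, 45.7 and 41.5 in Hdac1/2 cKD and 30.9, 23.8 and 45.2 in Sin3a KD. The groups overlapped throughout. Its change was log2 0.24 in Hdac1/2 cKD (95% interval -0.68 to 1.16, limma adjusted p = 0.758) and -0.05 in Sin3a KD (-0.98 to 0.87, adjusted p = 0.956). Hdac11 (chromosome 6, 91156665 to 91174692, forward strand) read 8.73, 7.51 and 26.5 in NC, 21.1, 20.4 and 9.87 in Hdac1/2 cKD and 10.8, 13.6 and 12.2 in Sin3a KD, about 7 to 24 reads. The groups overlapped: NC replicate 3 was the highest of the 9 libraries, and Hdac1/2 cKD replicate 3 lay below every Sin3a KD library. The change was log2 0.39 in Hdac1/2 cKD (95% interval -1.04 to 1.82, limma adjusted p = 0.740) and -0.00 in Sin3a KD (-1.43 to 1.43, adjusted p = 1.00). Predicted genes on the opposite strand, mainly Gm44002, hold 16.3% of Hdac11 stretches.

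The counts over the 7 genes stand beside those of all tested genes. In Hdac1/2 cKD against NC 1 of 7 was called, higher, where 15.6% of all tested genes were called (7.81% higher and 7.8% lower), and 2 of 7 (Hdac5 and Hdac6) had groups that did not overlap, where 33.1% of tested genes did. In Sin3a KD against NC 1 of 7 was called, lower, against 7.96% of all genes (3.6% higher and 4.36% lower), and the same gene, Hdac5, was the 1 without overlap, against 27.1%. In Hdac1/2 cKD against Sin3a KD 1 of 7 was called, higher, against 17.3% (8.49% higher and 8.78% lower), and 2 of 7 did not overlap against 39.7%. The median log2 fold changes of the 7 were 0.39, -0.00 and 0.29 in these 3 comparisons, and those of all tested genes 0.03, 0.03 and 0.01. With libraries scaled to equal totals, the share of called genes that were higher went from 50.02% to 67.2% in Hdac1/2 cKD against NC and from 45.2% to 63.6% in Sin3a KD against NC, and the medians of all genes went to 0.15 and 0.12. Both comparisons with NC use the same control libraries and are not independent. Over the 9 libraries, Pearson's r of log2 values between pairs of the 7 genes ran from -0.50 (Hdac7 with Hdac9) to 0.81 (Hdac6 with Hdac9, the latter at a few reads), and Hdac5 with Hdac6 had 0.12.

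**Figure D3:**
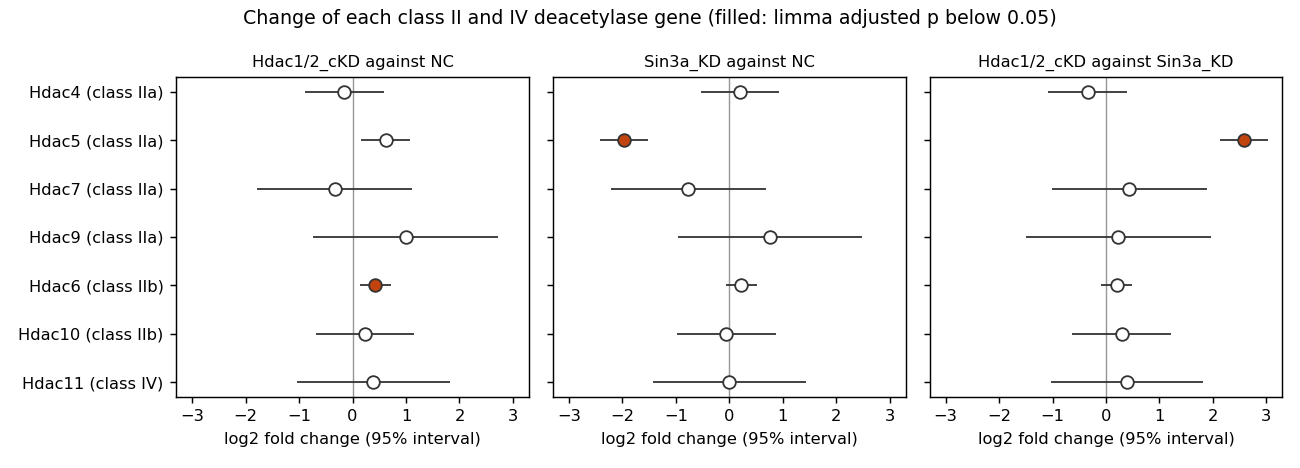
Log2 fold change of each of the 7 genes (horizontal axis) with its 95% interval in the 3 comparisons; filled points have a limma adjusted p below 0.05. Filled points are Hdac6 in Hdac1/2 cKD against NC and Hdac5 in the other panels, and the intervals of Hdac7, Hdac9 and Hdac11 are the widest, spanning 0 in every panel.

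Genes whose pattern was most like that of Hdac5 or Hdac6 were ranked by Pearson's r over the 9 libraries among 9230 genes with a mean of at least 50. All points share the same libraries and groups, and the values describe likeness only. Hdac5 was most like Alpl, the tissue-nonspecific alkaline phosphatase (r 0.993), Glb1, the lysosomal beta-galactosidase (0.983), and Lrp2, the endocytic receptor megalin (0.982). Alpl read 706 ± 56.3 in NC, 1032 ± 124 in Hdac1/2 cKD and 261 ± 39.6 in Sin3a KD. Hdac6 was most like Acaa1b, a peroxisomal thiolase (0.997), Kif13a, a kinesin (0.983), and Git1, an Arf regulator (0.974). Pearson's r does not reflect the size of a change. Acaa1b read 25.5, 7.58 and 1.38 in NC, 156 ± 28.1 in Hdac1/2 cKD and 56.8 ± 41.0 in Sin3a KD, a larger change than that of Hdac6 from low NC values. Git1 read 1028 ± 142 in NC, 1350.4 ± 22.3 in Hdac1/2 cKD and 1198 ± 121 in Sin3a KD.

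Around Hdac5, 9 genes within 100 kb were tested, a window chosen after its values were seen. Of these, 3 (Asb16, Nags and BC030867) were lower and none higher in Sin3a KD against NC. Among all tested genes 4.36% were lower and 3.6% higher there. In Hdac1/2 cKD against NC 1 (Asb16) was higher and 3 (G6pc3, BC030867 and Ubtf) lower. Among all tested genes 7.81% were higher and 7.8% lower there. BC030867, 18.7 kb away, did not follow Hdac5. It was lower in Hdac1/2 cKD (log2 -0.47, limma adjusted p = 0.0326) and in Sin3a KD (log2 -0.53, adjusted p = 0.0294). Asb16, which encodes an ankyrin repeat protein, and Nags, the mitochondrial N-acetylglutamate synthase, had their group means in the same order as Hdac5. Tmem101 and Atxn7l3 shared that order with smaller differences, and neither was called in any comparison. Asb16 lies 38.6 kb away and read 279, 171 and 224 in NC, 396, 310.5 and 406 in Hdac1/2 cKD and 85.9, 107.7 and 87.7 in Sin3a KD. Its 3 groups did not overlap (log2 0.74, limma adjusted p = 0.0474, and -1.23, adjusted p = 0.00856, against NC). Its difference between the knockdowns, log2 1.97, passed in all 20 alternative fits. The first of these calls held in 7 of 20 fits, and its adjusted p reached 0.156 without Hdac1/2 cKD replicate 3. The second held in 16, including every fit that left out 1 library. Nags, 45.0 kb away, fell to 5.93 ± 1.97 in Sin3a KD from 26.8 ± 6.73 (log2 -2.02, adjusted p = 0.0275), a call that held in 9 of 19 fits, and was at 49.0 ± 4.40 in Hdac1/2 cKD, which did not pass against NC (log2 0.87, adjusted p = 0.276). The closest gene, G6pc3, 0.351 kb away, did not follow: it fell in Hdac1/2 cKD (log2 -0.92, adjusted p = 0.0187), and in Sin3a KD it was at log2 -0.47 (adjusted p = 0.247). Around Hdac6, 9 genes were tested; 1 was lower (Slc35a2) and none higher in Hdac1/2 cKD against NC, and none was called in Sin3a KD against NC.

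**Figure D4:**
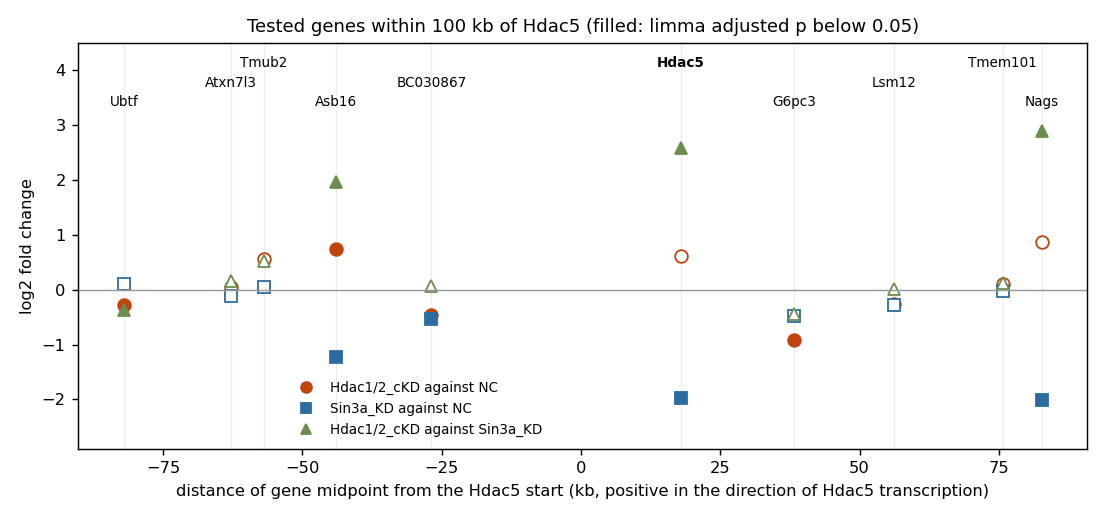
Log2 fold change (vertical axis) of Hdac5 and the 9 tested genes within 100 kb, against the distance of each gene's midpoint from the Hdac5 start in kb; circles, squares and triangles are the 3 comparisons, and filled symbols have a limma adjusted p below 0.05. Asb16 and Nags show the triangle far above and the square far below 0, as Hdac5 does, and the closest gene, G6pc3, has all 3 symbols below 0.

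Partners of the 7 genes were followed in 10 lists written from general knowledge. Among the MEF2 factors, which class IIa enzymes hold in check, Mef2d was the most abundant at 2411, 1874 and 1648 in NC and 2061, 1973 and 1724 in Hdac1/2 cKD. It fell to 1094, 1077 and 1360.5 in Sin3a KD (log2 -0.74, limma adjusted p = 0.0106), with no overlap. This call was lost without Sin3a KD replicate 1 (adjusted p = 0.0526) and in 4 other fits. Of 3 tested factors none was called in Hdac1/2 cKD against NC, where the list's lowest adjusted p was 0.683. Of 7 tested MEF2 target genes, 2 rose (Nppb and Klf6) and 2 fell (Jun and Nr4a1) in Hdac1/2 cKD against NC, and 1 fell in Sin3a KD. That gene was Nr4a1, an orphan nuclear receptor, which fell from 507 ± 37.2 to 202 ± 37.4 (log2 -1.34, limma adjusted p = 0.0035) and also stood lower, at 290.5 ± 57.5, in Hdac1/2 cKD (log2 -0.82, adjusted p = 0.0154). The list medians were -0.16 in Hdac1/2 cKD and -0.14 in Sin3a KD. Among all tested genes 7.81% rose and 7.8% fell in Hdac1/2 cKD against NC, and 4.36% fell in Sin3a KD against NC. Leaving out 1 library left 0 to 2 higher and 0 to 2 lower in Hdac1/2 cKD. The Nr4a1 call in Hdac1/2 cKD was lost without NC replicate 1 (0.0541) and without Hdac1/2 cKD replicate 1 (0.0711).

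Of 6 genes of the NCoR/SMRT complex, which supplies class IIa enzymes with deacetylase activity, 1 rose and 1 fell in Hdac1/2 cKD against NC and none was called in Sin3a KD (lowest adjusted p = 0.0872). Tbl1x, a WD-repeat subunit of the complex, rose from 648, 677 and 657 in NC to 1656, 1419 and 1478 in Hdac1/2 cKD (log2 1.195, SE 0.12, limma adjusted p = 5.08e-05), and the call held in all 20 alternative fits. Its paralog Tbl1xr1 fell (log2 -0.52, adjusted p = 0.0354), a call lost in 9 fits, among them those without NC replicate 1 or 3 or Hdac1/2 cKD replicate 2 or 3 (adjusted p up to 0.148). Hdac3, the enzyme of the complex, was at 335 ± 34.0 in NC, 373 ± 56.5 in Hdac1/2 cKD and 352 ± 41.4 in Sin3a KD, within its spread. The list medians were 0.30 and -0.08. Shares of all tested genes were 7.81% higher and 7.8% lower in Hdac1/2 cKD, and 3.6% higher and 4.36% lower in Sin3a KD. Of 8 other repression partners, Bcor rose in both knockdowns (log2 0.62 and 0.84, adjusted p = 0.0206 and 0.00956). Cbx5 and Ctbp1 fell in Sin3a KD (log2 -0.73 and -0.95, limma adjusted p = 0.0111 and 0.0243). In Sin3a KD the Bcor call was lost in 4 of 20 fits, the Cbx5 call in 5 and the Ctbp1 call in 10. The Bcor call in Hdac1/2 cKD was lost without NC replicate 3 (0.0599) or Hdac1/2 cKD replicate 3 (0.0967).

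Of 17 tested kinases that mark or signal to class IIa enzymes for export, 3 rose (Camk2b, Sik1 and Sik3) and none fell in Hdac1/2 cKD against NC. Among all tested genes 7.81% were called higher in that comparison. The list median was log2 0.41, against 0.03 for all genes, and 1 to 3 rose when 1 library was left out. Camk2b, a calcium-activated kinase, rose from 278, 247 and 115 to 633, 651 and 544 (log2 1.602, SE 0.30, limma adjusted p = 0.00303), a call kept in all 20 fits. Sik1, a salt-inducible kinase, was higher in both knockdowns, at 619.8 ± 20.4 and 669 ± 35.1 against 391 ± 82.7 (log2 0.69 and 0.80, adjusted p = 0.0138 and 0.0128). The Sik1 call was lost without Hdac1/2 cKD replicate 2 (0.0546) in the first case and without Sin3a KD replicate 1 (0.058) or 3 (0.0597) in the second. Sik3 rose in Hdac1/2 cKD from 935 ± 76.0 to 1240 ± 60.1, a call that held in 6 of 20 fits. Sik1 was the single kinase called in Sin3a KD against NC (list median 0.12), where 3.6% of all tested genes were called higher.

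The 14-3-3 proteins hold class IIa enzymes in the cytoplasm. Of 8 genes for 14-3-3 proteins and the export receptor Xpo1, 2 rose (Ywhah and Ywhaz) and 1 fell (Sfn) in Hdac1/2 cKD against NC (median log2 0.07), and 4 fell (Ywhah, Sfn, Ywhae and Ywhag) and none rose in Sin3a KD (median -0.37). Between the knockdowns 4 of 8 (Ywhah, Ywhag, Ywhaz and Ywhae) were higher in Hdac1/2 cKD and 4 did not pass, where 8.49% of all tested genes were higher. When 1 library was left out, 1 to 2 rose and 0 to 2 fell in Hdac1/2 cKD against NC, and 2 to 4 fell in Sin3a KD. The shares of all tested genes were 7.81% higher and 7.8% lower in Hdac1/2 cKD, and 3.6% higher and 4.36% lower in Sin3a KD. Ywhah read 1655, 1198 and 1496 in NC, 2588, 2481 and 2219.8 in Hdac1/2 cKD and 728, 900.4 and 807 in Sin3a KD. Like Hdac5 it formed 3 groups without overlap, higher in Hdac1/2 cKD (log2 0.75, limma adjusted p = 0.00263) and lower in Sin3a KD (log2 -0.83, adjusted p = 0.00495). Tested directly, the difference between the knockdowns was log2 1.58 (adjusted p = 1.15e-05) and passed in all 20 fits. The Sin3a KD call was lost in 4 fits, none of which left out a single library. Sequence shared with predicted genes or pseudogenes covers 11.9% of Ywhah.

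Of 12 Hdac6 substrates and partners, 2 chaperone and segregase genes (Hsp90ab1 and Vcp) fell in Hdac1/2 cKD against NC, and 5 fell (these with Hsp90aa1, Plaa and Sqstm1) and 1 rose (Dctn1) in Sin3a KD (medians -0.15 and -0.34). Leaving out 1 library left 0 to 2 lower in the former and 1 to 5 lower and 0 to 1 higher in the latter. The shares of all tested genes were 7.8% lower in the former, and 4.36% lower and 3.6% higher in the latter. Vcp, the segregase that works with Hdac6 on ubiquitinated proteins, fell in both (log2 -0.31 and -0.47, limma adjusted p = 0.0246 and 0.00701), but 46.3% of its stretches recur elsewhere, mainly in Vcp-rs. Its call in Hdac1/2 cKD was lost without any one of NC replicate 1 or 3 or the Hdac1/2 cKD libraries (adjusted p up to 0.0997). Atat1, the tubulin acetyltransferase that opposes Hdac6, read 39.8 ± 24.6 in NC, 68.0 ± 33.1 in Hdac1/2 cKD and 49.9 ± 16.2 in Sin3a KD and did not pass in any comparison.

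Of 11 polyamine genes around the substrate of Hdac10, 7 fell and none rose in Hdac1/2 cKD against NC (median log2 -0.38), where 7.8% of all genes were lower. In Sin3a KD 2 fell (median -0.16), where 4.36% of all genes were lower. Odc1, the first enzyme of polyamine synthesis, read 30538, 30542 and 32436 in NC and 21633, 22332 and 21391 in Hdac1/2 cKD (log2 -0.52, limma adjusted p = 0.000802). Amd1, which makes the aminopropyl donor, fell from 6017 ± 343 to 3554 ± 106 (log2 -0.76, adjusted p = 0.000283), although 82.8% of its stretches are shared, mainly with Amd2. The other genes that fell also share stretches: 31.3% for Odc1, 24.05% for Oaz1, 18.8% for Sms, 12.15% for Oaz2, 6.92% for Sat1 and 5.28% for Azin1. The inhibitor Azin1 of antizyme fell from 6106 ± 633 to 4241 ± 180.3 (log2 -0.52, adjusted p = 0.00387) and antizyme Oaz2 from 823 ± 55.0 to 515 ± 46.6 (log2 -0.68, adjusted p = 0.00542). These 4 calls were kept when any library was left out, and 4 to 7 of the list's genes then fell; over all alternative fits the count ran from 2 to 7, the lowest in the fit without NC replicate 3 and with lane as a factor. Genes of synthesis and antizyme genes were both among those that fell, and Srm, the spermidine synthase, (log2 0.05, adjusted p = 0.814) did not pass. Of the 3 genes linked to Hdac11 and fatty acylation, the N-myristoyltransferase gene Nmt2 and Shmt2, a substrate of Hdac11, rose in Hdac1/2 cKD (log2 0.73 and 1.197, adjusted p = 0.00357 and 0.0034). Among all tested genes 7.81% rose there. Nmt1 fell in Sin3a KD from 1543 ± 77.8 to 734 ± 95.6 (log2 -1.08, adjusted p = 0.0021).

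**Figure D5:**
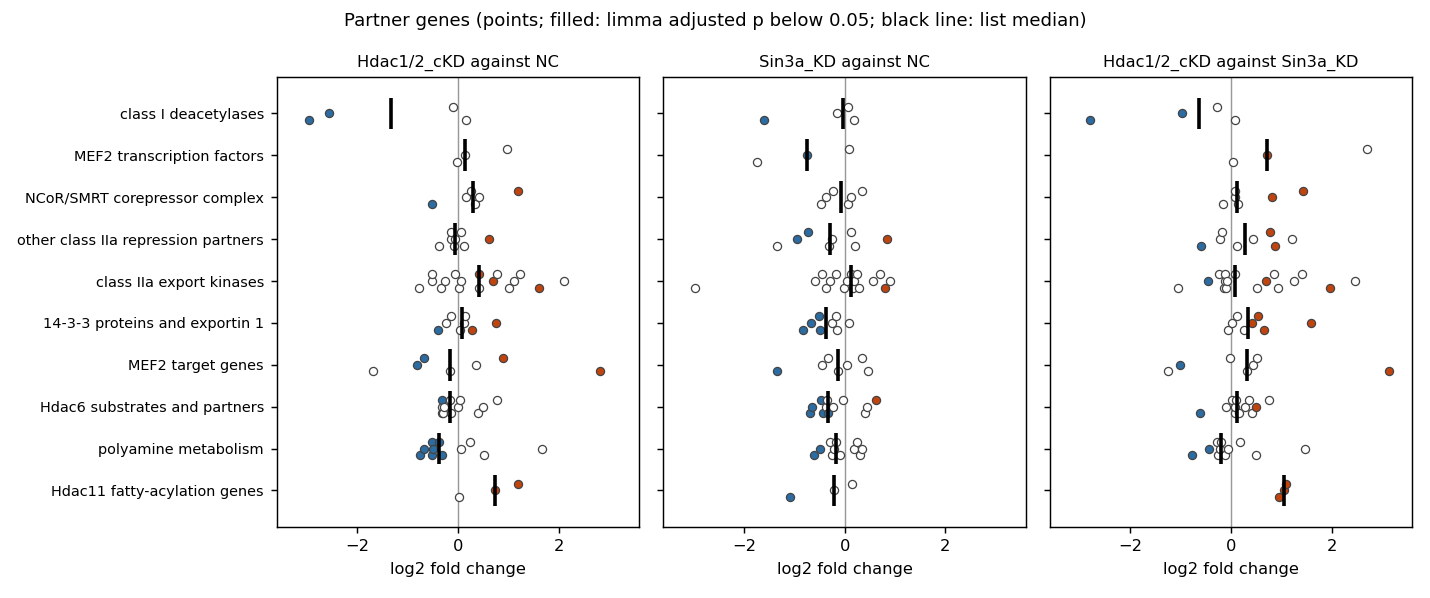
Log2 fold change (horizontal axis) of every tested partner gene, 1 row per list and 1 panel per comparison; filled points have a limma adjusted p below 0.05 (red higher, blue lower), and black lines are list medians. In Hdac1/2 cKD against NC 7 of 11 polyamine genes are filled blue, where 7.8% of all tested genes were called lower. In Sin3a KD against NC 4 of 8 genes for 14-3-3 proteins and exportin are filled blue, where 4.36% were called lower.

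Counting at most 4 genes of a list in each comparison, 11 of 23 such calls in Hdac1/2 cKD against NC, 7 of 18 in Sin3a KD against NC and 19 of 24 between the knockdowns remained when any library was left out, Hdac1 and Hdac2 included. None of the 18 calls of Sin3a KD against NC held in every fit, and all 18 were lost when the trend and robust moderation of limma was left out.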

How the data were processed

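Polyadenylated RNA of 9 embryo pools was sequenced. Per the submitters' processing notes, the authors counted reads with Salmon, normalised them with DESeq2 and used build GRCm38. Versions, strand setting and transcript models: not given in the sources used here. Deposited signal values are gene-level counts divided by normalisation factors, not raw counts: between 63.7% and 74.1% of low values per library lay within 0.1 of a whole multiple of 1 read, so whole reads were not recovered and a count model was not used. Totals were 11.9 M to 13.5 M per library. One line without a gene name (at most 0.00896%) was left out. Per the labels, RNA of RFP and GFP went into the lysate, but the table has 0 entries for them, so total RNA per embryo is not measured.

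All 9 libraries were fitted in limma 3.58.1 (R 4.3.3; 1 mean per group, trend and robust moderation, 6 residual degrees of freedom) on log2(value + 1), which understates changes of low genes. The fit was tested on simulated data. Annotation is GENCODE vM21; promoters are from RefSeq. The 7 genes and the partner and marker lists were chosen with earlier results of these data known. Named partners are up to 4 called genes per list, taken by lowest adjusted p (2 at most where none passed). Same-numbered replicates correlated at -0.0193 to 0.0581 after removing group means, and differently numbered ones at -0.0432 to 0.0331. These values do not exclude pairing. Numbers were not treated as pairs in the main fit, and a fit with the replicate number as a block is given below. Replicate 1 of NC and of Sin3a KD each have a lane to themselves, so a lane term leaves them without weight.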

Additional observations from a re-analysis of the deposited data

How the results depend on the processing

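The fall of Hdac5 in Sin3a KD and its difference between the knockdowns kept their direction in every fit, and 1 fit ended the former call. In Hdac1/2 cKD against NC, 2083 genes were called: 1369 with plain limma moderation (no trend, not robust), 1318 with the 2 libraries left out that had a lane to themselves, 695 without NC replicate 3 and with lane as a factor (chosen after seeing the data), and 1271 to 2170.0 when 1 library was left out. The 1 call among the 7 genes became 0 with an offset of 0.5 or 5, with every gene above 0 tested, with plain limma moderation, with a lane term, with both lone-lane libraries left out and in the added fit. It became 2 with equal totals, and leaving out 1 library gave 0 to 1. The gene called was not always Hdac6: without Sin3a KD replicate 2, and with only the groups compared, it was Hdac5 instead. In Sin3a KD against NC, 1062 genes were called: 36 with the plain moderation, 94 with lane, 51 without both libraries alone on lanes, 611 with only 2 groups, 10 in the added fit, and 337 to 1538 without 1 library (589 without NC replicate 1, 679 without NC replicate 3, 340.0 and 337 without Sin3a KD replicates 1 and 3). The 1 call among the 7 genes became 0 in the added fit. Between the knockdowns, 2304 genes were called: 1002 with lane, 1384 without both libraries, 598 in the added fit and 1426 to 2748 without 1 library. The cause of these moves was not tested.

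With the replicate number as a block, 2140.0, 1046 and 2372 genes were called; the Hdac5 calls held (adjusted p = 0.00196 in Sin3a KD against NC, 3.82e-05 between the knockdowns), and 0 of the 7 genes was called in Hdac1/2 cKD against NC, where Hdac6 had 0.0564.

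Signs turned for genes that were never called. In Hdac1/2 cKD against NC, leaving out 1 library moved Hdac4 between -0.50 and 0.26 and Hdac7 between -0.84 and 0.12. In Sin3a KD against NC, Hdac4 turned to -0.35 with lane and -0.79 in the added fit. Hdac10 turned to 0.037 with equal totals, 0.23 with lane, 0.22 without both libraries and 0.041 in the added fit, and ran from -0.29 to 0.19 without 1 library. Hdac11 turned to 0.0066 with offset 0.5, 0.086 with equal totals and 1.71 in the added fit, and ran from -0.31 to 0.53 (without NC replicate 3). Between the knockdowns, Hdac4 turned to 0.33 with lane and 0.51 in the added fit, Hdac9 to -0.046 with lane, -0.051 without both libraries and -0.031 in the added fit, and Hdac11 to -0.35 in the added fit. Without 1 library, Hdac4 ran from -0.69 to 0.062, Hdac7 from -0.074 to 0.86 and Hdac9 from -0.051 to 0.58. The cause of these turns was not tested. Hdac7, Hdac9, Hdac10 and Hdac11 have no value where a mean of at least 50 was asked for, and depth limits Hdac7, Hdac9 and Hdac11 to 2 to 34 reads per library.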
